A study of Mus musculus with 12 samples.

Results

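The Bcl2 family controls whether the outer membrane of the mitochondrion is opened in apoptosis, and 10 of its genes were followed here through a time course of RNA labelling. They were chosen by gene symbol: the pro-survival genes Mcl1, Bcl2l1, Bcl2l2 and Bcl2, the pro-death effectors Bax and Bak1, and the pro-death BH3-only genes Bid, Bad, Bcl2l11 and Bbc3. All 10 were found among the 17419 genes of the table. The RNA came from NIH-3T3 cells, an immortalised line of mouse fibroblasts with genotype WT, and the 12 libraries formed 6 groups of 2 (replicates A and B). One group received no 4-thiouridine (no4sU). The others were given 800 µM 4-thiouridine (4sU), a uridine analogue built into newly made RNA, over 15, 30, 60, 90 or 120 min, and the study asked how the length of labelling affects quantification. Iodoacetamide turns incorporated 4sU into a base that sequencing reports as cytosine, and from such conversions the fraction of transcripts synthesised since label was added is estimated for each gene (new-to-total ratio, NTR). Nothing in the labels says whether replicates were separate cultures, so p-values measure only the spread between these libraries, which may be technical.

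Pro-survival proteins of the family hold the effectors Bax and Bak in check. BH3-only proteins respond to stress signals by binding the pro-survival proteins or activating the effectors, which then form pores that release cytochrome c. Mcl1 is known for both a short-lived protein and a short-lived transcript, and Bbc3 (encoding Puma) and Bax are targets of p53. AU-rich elements in a 3′ untranslated region (UTR) are recognised by proteins that speed the decay of mRNA.

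A UAUUUAU core, the heptamer found in many AU-rich elements, was present in 3 of 4 pro-survival genes (Mcl1, Bcl2l1 and Bcl2) and in 1 of 6 pro-death genes (Bcl2l11). For each gene the longest 3′ UTR of its annotated coding transcripts was searched, on its own strand, for TATTTAT (the heptamer as DNA) and for the shorter ATTTA that lies inside it. Bcl2l2, Bax, Bak1, Bid, Bad and Bbc3 had no TATTTAT. All 8 sites found are shown, and a link between these sites and NTR was not tested. Mcl1, Bcl2l1 and Bcl2l11 are among the members with the highest NTR at 120 min. However, Bbc3, the member with the highest, has no site, and Bcl2, with 2 sites, has an intermediate NTR. The heptamer is in capitals, and sequences and positions are from GENCODE M21 on GRCm38, 5′ to 3′ on the strand of the gene, each within the 3′ UTR.
Mcl1 site at chr3:95660882-95660910, plus strand: gaaaacatgtgTATTTATgaaggtggact
Mcl1 site at chr3:95662578-95662606, plus strand: ttgtacctgtgTATTTATccttgatcata
Mcl1 site at chr3:95662603-95662631, plus strand: catagtttgctTATTTATgtttaactctt
Bcl2l1 site at chr2:152780892-152780920, minus strand: aagcgtgtctgTATTTATgtgtgaggagc
Bcl2 site at chr1:106542995-106543023, minus strand: aaaaaaagattTATTTATttaagacagtt
Bcl2 site at chr1:106539916-106539944, minus strand: aggcatattctTATTTATtacatctaaga
Bcl2l11 site at chr2:128161109-128161137, plus strand: tatattttgacTATTTATtagattagaaa
Bcl2l11 site at chr2:128161343-128161371, plus strand: gagatgttgtaTATTTATtttccgcttat

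Such matches were common in UTRs of the same size. Among 3′ UTRs within 10% of the length of that of Mcl1 (2353 bases), 43.5% held TATTTAT, and 14.0% held at least as many ATTTA as the 8 of Mcl1. For Bcl2l1 (1477 bases) the share with TATTTAT was 32.0%, for Bcl2 (5086 bases) 65.5% and for Bcl2l11 (4218 bases) 60.5%. For the members without TATTTAT the share was 57.2% (Bcl2l2), 33.8% (Bid), 27.3% (Bak1), 26.5% (Bad) and 22.6% (Bbc3), and over all 3′ UTRs searched it was 32.4%. The counts by role were not tested against these shares and are not read as a difference between roles. Bbc3, Bax, Bak1 and Bid had no ATTTA either. The 3′ UTR of Bax, at 224 bases, was the shortest, and only 7.8% of UTRs of that size held TATTTAT. A missing match says only that these letters are not in the annotated region.

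Between 9917026 and 13739380 reads were counted per library. The no4sU replicates differed more than others, with a mean chi-square per gene of 9.09 against 1.49 to 1.85 in the labelled groups, so calls that change without either of them are given. Of 10 fibroblast markers, 8 lay between 101 and 8327 CPM (counts scaled to libraries of one fixed size) in every library, while Fap (at most 0.0754 CPM) and Lum (1.04 to 2.40 CPM) were at or near 0. Of markers of other cell types, Ptprc, Pecam1, Cdh1 and Krt8 reached at most 0.388 CPM, Cdh5 1.55, Cd68 6.76 and Map2 13.4 CPM. Epcam, Krt18, Cd3e and Rbfox3 were not found by symbol among the genes counted.

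The members differed widely in level. Counts per gene length, scaled to a fixed sum per library (TPM), were highest for Bax in each of the 12 libraries, at 326 to 372 TPM, followed by Bcl2l1 at 156 to 189 TPM. Bax encodes the effector that moves from the cytosol to mitochondria, and Bcl2l1 encodes Bcl-xL. Mcl1 ranged from 73.8 to 150.5 TPM and Bak1, the effector resident on mitochondria, from 101 to 119 TPM. These ranges overlapped, and Mcl1 was above Bak1 in 8 of 12 libraries. Bad (46.3 to 54.3 TPM), Bid (28.8 to 37.6), Bcl2l2 (22.7 to 27.3) and Bbc3 (9.92 to 14.0) followed with no overlap between neighbours. The lowest were Bcl2l11, which encodes Bim, at 3.66 to 6.76 TPM and Bcl2 at 4.46 to 6.19 TPM, which overlapped.

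Reads behind these levels set the precision. Mean counts over the 12 libraries were between 1130 and 1935 for Mcl1, Bcl2l1, Bax and Bak1, between 338 and 411 for Bcl2l2, Bid and Bad, and 162, 116 and 88.0 for Bcl2, Bcl2l11 and Bbc3. Exons of 6 members overlap those of another gene in GENCODE M21, and whether reads were counted by strand is unknown here. Bcl2 overlaps an antisense RNA, Bak1 overlaps Ggnbp1, Bid overlaps Bcl2l13 and Bad overlaps Gpr137, all on the other strand. Bcl2l2 shares exon bases with Gm20521, and Bax with Gm45808, on the same strand. Values of these 6 genes are uncertain to that extent.

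Mcl1 was the member whose read count changed most. Its gene (ENSMUSG00000038612) lies on chromosome 3 from 95658788 to 95663176, plus strand. Mcl1 stood at 180.0 CPM in no4sU replicate A and 177 in B, and labelling for 15 min gave 189 and 173 CPM, for 30 min 172 and 189. Labelling for 60 min gave 143 and 155 CPM, for 90 min 127 and 117, and for 120 min 100.4 and 107. Every library from 60 min on lay below all 6 libraries of no4sU, 15 and 30 min, and the groups at 60, 90 and 120 min did not overlap. Between 15 and 120 min the log2 fold change was -0.80 ± 0.0682 (SE), a fold of 0.574, with an edgeR adjusted p of 5.9e-07. Between no4sU and 120 min it was -0.78 ± 0.0680 (edgeR adjusted p = 7.02e-07). The loss of Mcl1 reads was already past the threshold at 90 min, by -0.55 ± 0.0678 (edgeR adjusted p = 0.000199), though not when these 2 groups alone were fitted (-0.55, adjusted p = 0.0681). For 60 min against no4sU it was -0.26 ± 0.0663 with an edgeR adjusted p of 0.252, which was 0.0284 without no4sU replicate A and 0.00465 without B. As CPM is relative to the other genes of a library, fewer Mcl1 transcripts per cell and a larger pool of other RNA cannot be told apart. Values of Mcl1 with labelled reads scaled up are given below.

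**Figure D1:**
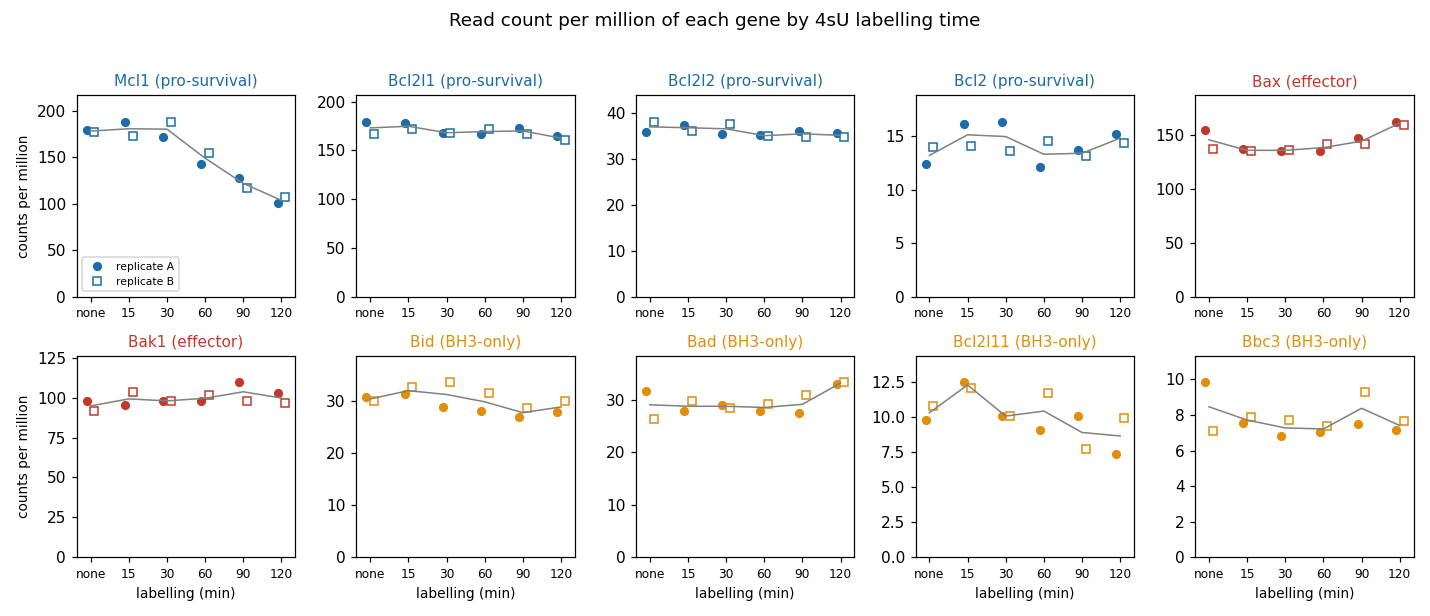
Level in CPM (vertical axis, from 0, a different scale in each panel) of the 10 genes by labelling time in minutes (horizontal axis, none = no4sU); filled circles are replicate A, open squares replicate B, and the grey line joins group means. Mcl1 goes from 178 CPM without label to 104 CPM at 120 min, Bax is highest at 120 min (161 CPM), and Bcl2l1 lies between 161 and 179 CPM in every library.

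Of the 10 members 3 passed an edgeR adjusted p below 0.05 for 120 against 15 min: Mcl1 and Bcl2l11 were lower and Bax was higher. Among all genes, 19.3% of 11564 tested genes passed, 11.3% lower and 7.93% higher. The slope over the 10 labelled libraries called the same 3 members in the same directions, where 37.8% of 11526 genes passed (19.5% lower and 18.3% higher). The median log2 fold change of the members between 15 and 120 min was -0.06, beside 0.01 over all tested genes, and it was 0.05 after the scaling of labelled reads given below. Against no4sU, Mcl1 was the member that passed at 120 min, beside 14.2% of all genes (8.78% lower and 5.43% higher). It was also the one that passed at 90 min, beside 1.39% (0.943% lower and 0.45% higher).

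At 60 min no member passed (0 by edgeR and 0 by DESeq2, with 1, Mcl1, at an unadjusted edgeR p under 0.05), beside 0.0173% of all genes (0.00865% in each direction). At 15 and 30 min 0 genes of the table passed by edgeR and 0 by DESeq2, 618 and 670 had an unadjusted edgeR p under 0.05, and 0 of these were members. Without no4sU replicate B, Bax was called lower in both comparisons (-0.19 with an edgeR adjusted p of 0.0255 in each), and 1336 and 1363 genes were called. Scaling by library size alone turned the split of all genes between 15 and 120 min from 917 higher and 1311 lower to 426 and 1867, and that of the slope from 2111 and 2251 to 1172 and 3031. Between no4sU and 120 min the split went from 628 and 1015 to 203 and 1684, and for 90 min from 52 and 109 to 22 and 262. Mcl1, Bax and Bcl2l11 kept their direction under it.

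By role, 1 of 4 pro-survival genes passed between 15 and 120 min, and 2 of 6 pro-death genes passed, in opposite directions. Bcl2l1 was at -0.10 (95% interval -0.22 to 0.01), Bcl2l2, which encodes Bcl-w, at -0.07 (-0.23 to 0.10) and Bcl2, the founder of the family, at -0.03 (-0.30 to 0.23). A fall as large as that of Mcl1 lay outside each of these 3 intervals. Among pro-death genes, Bak1 was at 0.01 (-0.14 to 0.15) and Bid, whose protein is cleaved by caspase-8, at -0.15 (-0.34 to 0.05). Bad, a BH3-only protein controlled by phosphorylation, was at 0.21 (0.01 to 0.41) with an edgeR adjusted p of 0.137, and between no4sU and 120 min it was at 0.20 (adjusted p = 0.158), or 0.33 (adjusted p = 0.0109) without no4sU replicate A. Bbc3 was at -0.05 (-0.41 to 0.31).

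Members that did not pass are given by their range in CPM. Over the 12 libraries Bcl2l2 had its lowest value at 34.7, its median at 35.7 and its highest at 38.1 CPM. Bcl2 lay between 12.1 and 16.4 CPM (median 14.1), Bak1 between 91.5 and 109.5 (median 98.0) and Bid between 26.9 and 33.5 (median 29.9). Bad lay between 26.4 and 33.3 CPM (median 29.1), and Bbc3 between 6.80 and 9.83 (median 7.52). The slopes of Bid (-0.10 per hour, edgeR adjusted p = 0.0732) and Bad (0.10 per hour, adjusted p = 0.051) were just short of the threshold.

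Bax (ENSMUSG00000003873, chromosome 7 from 45461697 to 45466898, minus strand) stood at 155 CPM in no4sU replicate A and 137 in B. Labelling for 15 min gave 137 and 135 CPM, for 30 min 136 and 137, for 60 min 135 and 142, for 90 min 147 and 142, and for 120 min 163 and 160.05. The 120 min libraries were above all others, and no4sU replicate A was the next. Between 15 and 120 min the log2 fold change was 0.25 ± 0.0618 (SE, edgeR adjusted p = 0.00924), and the slope over labelled libraries was 0.13 ± 0.0242 per hour (edgeR adjusted p = 2.4e-05). Leaving out any one of 15 min A, 15 min B, 120 min A or 120 min B left the log2 fold change of Bax at 0.23 to 0.26, with edgeR adjusted p-values of 0.0631 to 0.0742 that missed the threshold, and the slope without the 120 min libraries was 0.06 (adjusted p = 0.202). Between no4sU and 120 min Bax was at 0.15 (adjusted p = 0.107), or 0.24 (adjusted p = 0.000846) without no4sU replicate A and 0.06 (adjusted p = 0.539) without B.

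Bcl2l11 (ENSMUSG00000027381, chromosome 2 from 128126038 to 128162547, plus strand) was covered by 79 to 156 reads per library. It stood at 9.83 CPM in no4sU replicate A and 10.8 in B. Labelling for 15 min gave 12.5 and 12.1 CPM, for 30 min 10.1 in both, for 60 min 9.12 and 11.8, for 90 min 10.1 and 7.73, and for 120 min 7.34 and 9.98. The 15 min libraries were the highest of all, and no4sU overlapped with 60, 90 and 120 min. Between 15 and 120 min the log2 fold change was -0.49 ± 0.162 (SE, edgeR adjusted p = 0.0396). It was not past the threshold without 120 min replicate A (-0.30, adjusted p = 0.316), 15 min replicate A (-0.47, adjusted p = 0.181) or 15 min replicate B (-0.51, adjusted p = 0.123). The slope of Bcl2l11 was -0.25 ± 0.0766 per hour (edgeR adjusted p = 0.00855), and it missed the threshold in 3 of the settings that left libraries out. Dropping 120 min replicate A gave -0.19 (adjusted p = 0.0831), dropping both 120 min libraries -0.30 (adjusted p = 0.0645) and dropping both 15 min libraries -0.17 (adjusted p = 0.204). Between no4sU and 120 min it was at -0.24 (adjusted p = 0.342).

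**Figure D2:**
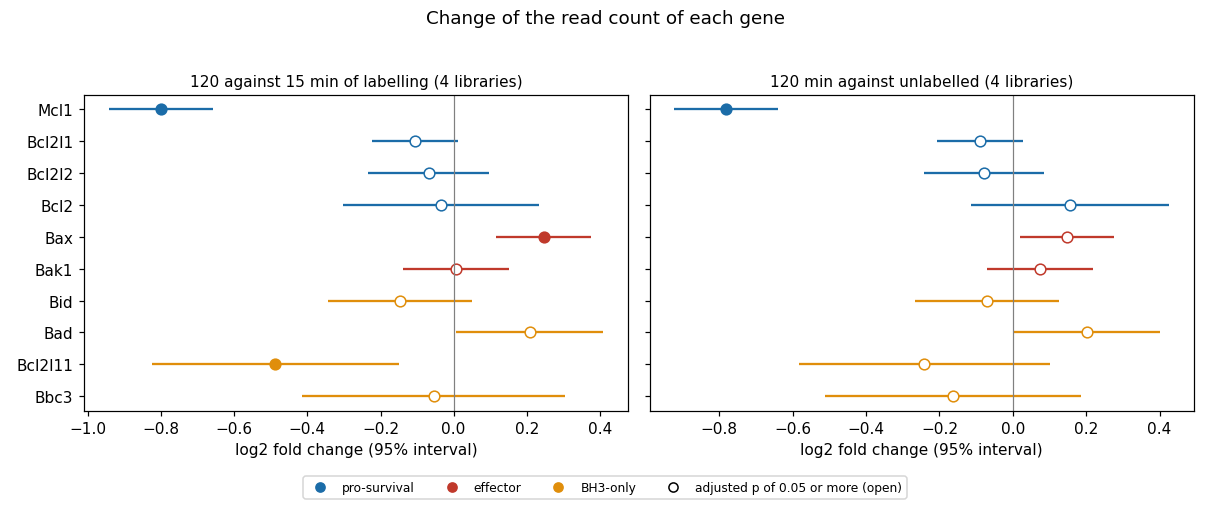
Log2 fold change of the read count (horizontal axis) of each gene (vertical axis) at 120 min against 15 min (left) and against no4sU (right), from edgeR; lines are 95% intervals, colours mark the role, and filled points have an adjusted p below 0.05. Mcl1 stands apart at -0.80 and -0.78, Bax and Bcl2l11 are filled on the left and open on the right, and the other 7 are open in both panels.

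Levels were also recomputed with the new part of each count scaled up in the 60, 90 and 120 min libraries. The scaling was set to the point at which fold changes no longer ran with NTR across genes. Counts of the 15 and 30 min libraries were not scaled. The comparison with 15 min and the slope therefore set scaled libraries against unscaled ones. The shortfall of labelled reads implied by this scaling was 30.4% and 32.0% in the 120 min libraries. After it, Mcl1 was at -0.53 between 15 and 120 min (edgeR adjusted p = 0.000107) and at -0.51 between no4sU and 120 min (adjusted p = 0.000141). Bax was at 0.16 (adjusted p = 0.22) and Bcl2l11 at -0.22 (adjusted p = 0.567) between 15 and 120 min. Mcl1 was thus still called lower, at a smaller size, and the other 2 members were not called in this comparison. On the slope, Bax was still called under the same scaling (0.08 per hour, edgeR adjusted p = 0.0113), while Bcl2l11 was not (-0.09 per hour).

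Pro-survival and pro-death genes were also set against each other as sums of TPM. The log2 ratio of the pro-survival sum to the pro-death sum was -0.74 and -0.63 in the no4sU libraries, -0.57 and -0.67 after 15 min and -0.66 and -0.62 after 30 min of labelling. It was -0.76 and -0.77 after 60 min, -0.89 and -0.92 after 90 min, and -1.13 and -1.11 after 120 min. The 90 and 120 min libraries lay below all others and did not overlap with each other. Without Mcl1 the mean ratio was -1.41 ± 0.0636 (SD, n = 2) in no4sU, -1.35 ± 0.0545 after 15 min, -1.45 ± 0.00424 after 90 min and -1.61 ± 0.0116 after 120 min. The change was smaller without Mcl1, with the 120 min libraries still the lowest. These ratios were not recomputed with the new part of each count scaled up. Under that scaling the log2 fold change between no4sU and 120 min went from -0.09 to 0.11 for Bcl2l1 and from 0.15 to 0.06 for Bax. None of these values passed the threshold. Summed as CPM instead, the ratio had the other sign in every group but the last, with a mean of 0.33 in no4sU and -0.10 after 120 min. The pro-death sum was 578 and 542 TPM in no4sU and 577 and 565 TPM after 120 min, and the pro-survival sum 347 and 351 against 264 and 262 TPM.

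Members also differed widely in the share of their RNA that was new. At 120 min the NTR was 1.00 for Bbc3 in both libraries, 0.906 and 0.899 for Mcl1, 0.834 and 0.923 for Bcl2l11, and 0.774 and 0.765 for Bcl2l1, in replicates A and B. Intermediate values were found for Bcl2 (0.553 and 0.608), Bid (0.569 and 0.559), Bcl2l2 (0.490 and 0.515) and Bak1 (0.434 and 0.399). Bax (0.235 and 0.209) and Bad (0.161 and 0.172) were lowest. The median over the 9065 genes averaging 100 counts or more was 0.354 ± 0.00523 (SD, n = 2), so 8 members were above it and Bax and Bad below. Pro-death genes thus held both ends of the range, and all 4 pro-survival genes lay above the median gene.

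The median NTR of the 4 pro-survival genes at 120 min was 0.675 ± 0.0162 (SD, n = 2) and that of the 6 pro-death genes 0.490 ± 0.0161, a difference of 0.185 ± 0.0323. Without Mcl1 the difference was 0.0902 ± 0.0550. After 90 min the difference was 0.104 ± 0.00951 and after 60 min 0.0854 ± 0.0217, but after 30 min it was -0.0172 ± 0.0304 and after 15 min -0.00398 ± 0.00194. The ranges of both roles overlapped, in 120 min replicate A from 0.490 to 0.906 against 0.161 to 1.00. Members are not replicates of a role, so these differences were not tested.

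**Figure D3:**
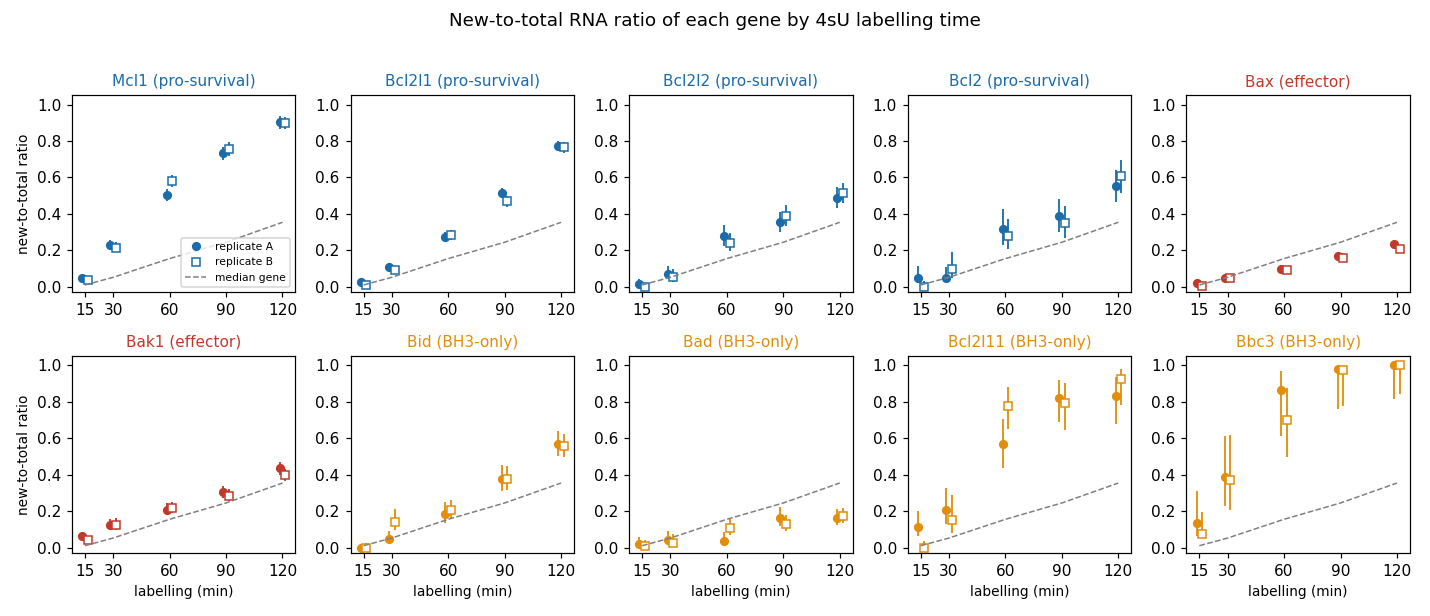
New-to-total ratio (vertical axis, a fraction) of each gene by labelling time in minutes (horizontal axis); filled circles are replicate A, open squares replicate B, vertical lines run from the deposited 0.05 to 0.95 quantile, and the dashed line is the median gene. Mcl1, Bcl2l11 and Bbc3 rise steeply to above 0.8 at 120 min, while Bax and Bad end below the dashed line at 0.354.

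Mcl1 kept its place near the top throughout. Its NTR was 0.0495 and 0.0358 after 15 min, 0.231 and 0.215 after 30 min, 0.503 and 0.583 after 60 min, and 0.733 and 0.757 after 90 min. Against the 9065 genes it ranked between the 92.2 and the 95.9 percentile in all 10 labelled libraries. The 60 min replicates of Mcl1 differed beyond the deposited intervals (0.469 to 0.538 in A and 0.550 to 0.616 in B). Replicate intervals were also apart for Bid after 30 min and Bcl2l11 after 15 min, and they overlapped for the other pairs.

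Bbc3 had an even faster course, at lower depth. Its NTR was 0.137 and 0.0726 after 15 min, 0.388 and 0.371 after 30 min, 0.866 and 0.701 after 60 min, and 0.980 and 0.976 after 90 min, at or above the 96.7 percentile of genes in every labelled library. With 71 to 104 reads per library the intervals were wide, from 0.613 to 0.966 in 60 min replicate A. After 120 min the posterior maximum of 1.00 lay above its own 0.95 quantile (0.994 and 0.995), and the posterior mean averaged 0.957. The level of Bbc3 did not pass the test in any comparison while nearly all of its RNA was replaced.

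Bax lay at the other end, with an NTR of 0.0211 and 0.0036 after 15 min, 0.0460 and 0.0496 after 30 min, 0.0998 and 0.0946 after 60 min, and 0.170 and 0.161 after 90 min. From 60 min on Bax ranked between the 24.7 and the 31.2 percentile, and Bad between the 3.4 and the 29.5 percentile. Bcl2l1 moved up in rank, from between 58.7 and 81.0 after 15 and 30 min to 85.5 and 85.2 after 120 min. Its NTR was 0.0241 and 0.0088 after 15 min, 0.108 and 0.0924 after 30 min, 0.272 and 0.283 after 60 min, and 0.515 and 0.469 after 90 min. Bak1 moved down in rank, from 95.4 and 95.5 after 15 min to 59.7 and 56.5 after 120 min.

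Multiplying the NTR by the level splits each count into a new and an old part. For Mcl1 the new part was 72.1 and 90.4 CPM after 60 min, 93.4 and 88.3 after 90 min, and 91.0 and 96.3 after 120 min. Its old part was 179 and 167 CPM after 15 min, 71.2 and 64.7 after 60 min, 34.0 and 28.4 after 90 min, and 9.42 and 10.8 after 120 min, the last being 5.28% and 6.06% of the no4sU mean. The new part of Mcl1 thus levelled off below the unlabelled level of 178 CPM while the old part went on falling. In Bcl2l1 the new part was higher after 120 min, at 127 and 123 CPM, than after 90 min, at 88.8 and 78.4, and the old part went from 83.8 and 88.8 to 37.1 and 37.7 CPM. Bax had an old part of 124 and 127 CPM after 120 min, 85.3% and 86.7% of its no4sU mean, and its new part reached 38.3 and 33.5 CPM. The old part of Bax thus stayed close to the unlabelled level. Bad kept an old part of 27.8 and 27.6 CPM after 120 min, against 31.7 and 26.4 CPM in no4sU.

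**Figure D4:**
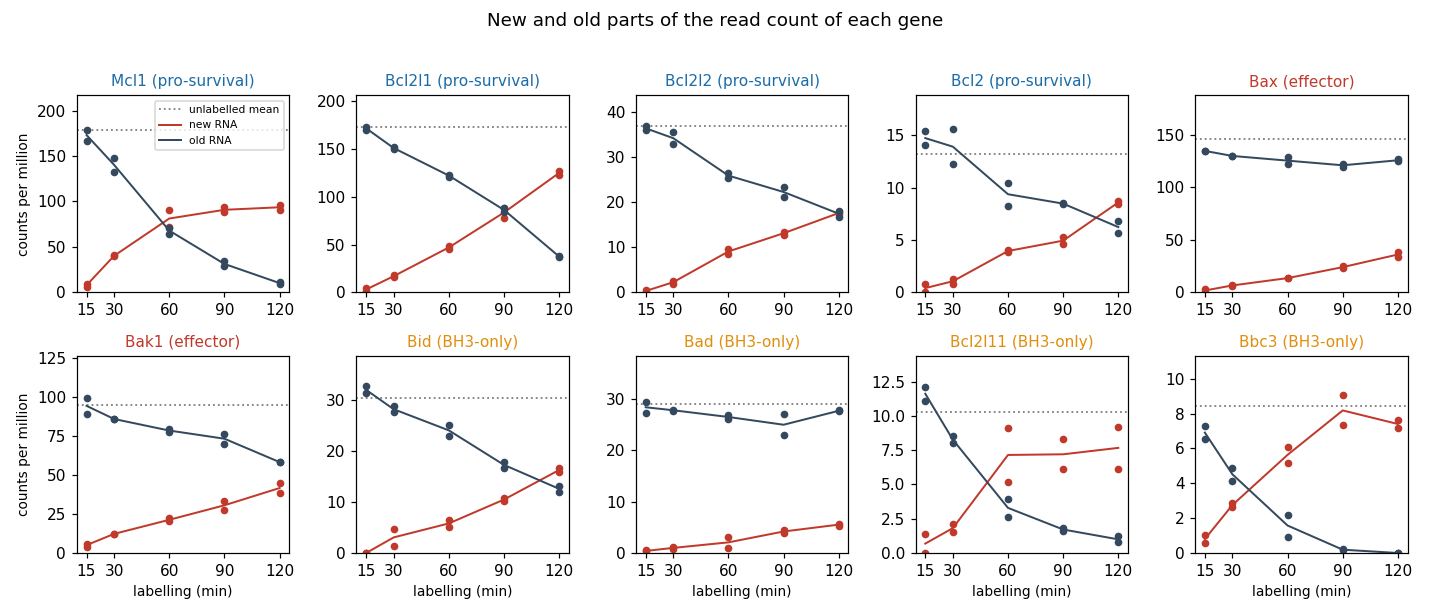
New part (red, NTR times CPM) and old part (dark, the rest) of the level of each gene in CPM (vertical axis) by labelling time in minutes (horizontal axis); points are libraries, lines join means, and the dotted line is the no4sU mean. New and old parts of Mcl1 cross near 60 min. The new part of Mcl1, not scaled for the implied shortfall of labelled reads, is at 93.6 CPM after 120 min. In Bax and Bad the old part stays far above the new part.

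An apparent half-life follows from the NTR if decay is exponential and the level constant: the labelling time multiplied by ln 2, over -ln(1-NTR). After 120 min it was 35.7 min ± 0.801 (SD, n = 2) for Mcl1, 39.4 ± 9.88 for Bcl2l11, 56.7 ± 1.09 for Bcl2l1 and 96.1 ± 10.2 for Bcl2. It was 100.2 min ± 1.98 for Bid, 119 ± 6.003 for Bcl2l2, 155 ± 12.4 for Bak1, 332 ± 31.3 for Bax and 458 ± 23.7 for Bad. For Bbc3 the NTR was outside the usable range after 120 min, and after 90 min the value was 16.4 min ± 0.559, or 24.5 min from the posterior mean in place of the maximum. The apparent values from Bbc3 to Bad thus run from minutes to hours. The level of Mcl1 was not constant (a fold of 0.582 after 120 min against no4sU), so its value does not meet the condition above.

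The members did not share one shift with duration. From 30 to 120 min the apparent half-life of Bak1 was nearly the same (156 ± 0.665 and 155 ± 12.4 min, a ratio of 1.01), and that of Bax went from 425 ± 23.2 to 332 ± 31.3 min (1.28). That of Bcl2l1 went from 198 ± 23.5 min through 128 ± 4.08 after 60 min and 92.5 ± 8.72 after 90 min to 56.7 ± 1.09, a ratio of 3.49. Bcl2l1 shortened at every step by more than its replicates differed. Mcl1 went from 82.5 ± 4.64 to 35.7 ± 0.801 min (2.31). The median ratio of the 7865 genes with both values was 2.12, and the ratios of Bak1, Bax and Bcl2l1 lay at the 7.4, 16.3 and 83.0 percentile. For Bid (284 ± 210 min) and Bcl2 (311 ± 150) the replicate spread after 30 min was too large to give a ratio any weight.

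**Figure D5:**
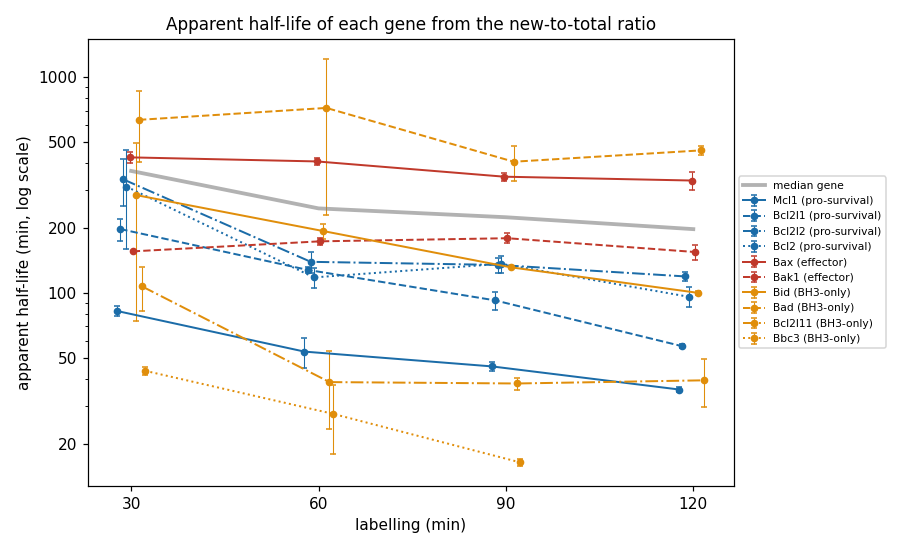
Apparent half-life in minutes (vertical axis, log scale) of each gene by labelling time in minutes from 30 to 120 (horizontal axis); points are means of 2 libraries, bars their SD, colours the role, and the thick grey line the median gene. Bak1 is nearly flat, Bax goes from 425 to 332 min, Bcl2l1 falls from 198 to 56.7 min, and Bbc3 has no value at 120 min.

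Genes with the course most like a member were found by the Euclidean distance of NTR over the 10 labelled libraries among the 9065 genes. For Mcl1, the member with the highest NTR after 120 min among the 9 averaging 100 counts or more, these were Casp2 (distance 0.0462), Pcdh18 (0.0712) and Cdkn1b (0.0736), with mean NTR values after 120 min of 0.891, 0.906 and 0.928. For Bad, the lowest, they were Rab28 (0.0433), Sptlc1 (0.0438) and Ift22 (0.0450), at 0.178, 0.187 and 0.164.

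Other genes of apoptosis were taken from a list of 45, of which 35 passed the filter on low counts. Between 15 and 120 min 4 were higher, 4 lower and 27 not called, with a median log2 fold change of -0.04, beside the 7.93% and 11.3% of all genes. The 3 largest rises were those of Bnip3l, a mitophagy receptor (0.29 ± 0.0656 SE, edgeR adjusted p = 0.00439), Cycs, cytochrome c (0.25), and Aifm1, a mitochondrial flavoprotein (0.24). Their mean NTR after 120 min was 0.113, 0.132 and 0.150. Lower were Birc3, an inhibitor of apoptosis (-0.72 ± 0.206, edgeR adjusted p = 0.0195, mean count 68.9), the caspase Casp2 (-0.57 ± 0.0906, adjusted p = 0.000417), Apaf1, the scaffold of the apoptosome (-0.46), and Cflar, an inhibitor of caspase-8 (-0.25). Their mean NTR after 120 min was 0.863, 0.891, 0.627 and 0.842. These 3 higher genes were thus below the median gene in NTR, like Bax, and all 4 lower genes above it, like Mcl1 and Bcl2l11. Fold changes ran with NTR across all genes before the scaling given above, so this is not read as a trait of apoptosis genes. With that scaling 252 genes of the table were called in place of 2228.

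Of the 12 apoptosome genes and caspases 5 were called between 15 and 120 min, beside 19.3% of all genes. Of 6 other Bcl2 family genes 1 was higher, of 5 inhibitors of apoptosis 1 was lower, and of 7 genes of the death receptor arm 1 was lower. DESeq2 called 4 of the 12 and 0 of the 5 inhibitors. A gene left without an adjusted p by DESeq2 was counted as not called. Bcl2l11 (mean count 116) was such a gene, and Birc3 had fewer reads (mean count 68.9). The 0 is therefore not read as a disagreement about Birc3. Of 5 genes for the turnover of Bcl2 family proteins 0 passed by edgeR, 0 by DESeq2 and 0 had an unadjusted edgeR p under 0.05. Between no4sU and 120 min 3 of the 35 were higher (Bnip3l, Cycs and Huwe1, a ubiquitin ligase of Mcl1) and 2 lower (Casp2 and Apaf1). Of all genes, 5.43% were higher and 8.78% lower in that comparison. The slope called 6 of the 35 higher and 8 lower, beside 18.3% and 19.5% of all genes. Among the lower genes were the inhibitors Birc2 (-0.23 per hour), Birc3 (-0.41) and Xiap (-0.14), while Birc5 and Birc6 were not called.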

How the data were processed

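The authors deposited a table of estimated counts per gene and library, of which 20.4% were not whole (tolerance 1e-06); these were rounded before testing. As a fraction per labelled library, the authors deposited the NTR (posterior maximum, mean, 0.05 and 0.95 quantiles, per the file headers). The deposited alpha and beta columns, each a score, were not used. Per the submitters' processing notes, cutadapt, Bowtie2 2.3.0 and STAR 2.7.10b were used. For build, annotation and counting tool, the sources used here give nothing.

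Genes kept by filterByExpr were tested with edgeR 4.0.16 (R 4.3.3; TMM, factors 0.970 to 1.02; quasi-likelihood fit of all 12 libraries; common biological coefficient of variation 4.44%), and the slope was fitted on the 10 labelled libraries. P-values were adjusted by Benjamini-Hochberg over all tested genes, with 0.05 as the threshold. Scripts were tested on simulated data. DESeq2 1.42.0 was the other tool. CPM used TMM library sizes, and TPM the deposited gene length. Half-lives used NTR values from 0.01 to 0.99, and NTR ranks used the 9065 genes averaging 100 counts or more. All 10 members are named. Of other apoptosis genes the rule named the 3 largest called rises and falls; Cflar, a further fall, was added after its value was seen, as were the other genes named for no4sU and the slope. One further result is not reported here. Members and lists were chosen with earlier results of these data known.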

Additional observations from a re-analysis of the deposited data

How the results depend on the processing

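The fall of Mcl1 after 120 min was past the threshold under every alternative run. The number of members called between 15 and 120 min was 3, but 4 with library sizes alone (Bcl2l1 being added at -0.16, edgeR adjusted p = 0.0472), 2 by DESeq2, 1 with the labelled part scaled by the implied loss, and 1 to 2 when a library was left out. Against no4sU, leaving out a library gave 0 to 1 members at 15, 30 and 60 min, 1 at 90 min and 1 to 3 at 120 min (Bax and Bad being added without no4sU replicate A). At 60 min 1 member (Mcl1) was called without a filter on low counts, and at 90 min 0 when these 2 groups alone were fitted. For the slope, 5 members were called with library sizes alone, 1 without the 120 min libraries and 2 to 4 without a library. Bcl2l1 turned to 0.0698 per hour (log2) (edgeR adjusted p = 0.0231) with the labelled part scaled, an alternative that for the slope was chosen after seeing the data. DESeq2 gave no adjusted p for Bcl2l11 between 15 and 120 min. Among members averaging 1000 counts or more the NTR difference between roles after 120 min was 0.517 instead of 0.185. That setting kept only Mcl1 and Bcl2l1 against Bax and Bak1, so it left out every BH3-only gene and is a different set of genes. The log2 ratio of roles after 120 min was -0.10 in CPM instead of -1.12, and above 0 in CPM (0.07 to 0.43) in the 10 libraries of the other groups. The replicate letters did not pair the libraries (correlations of deviations between groups of -0.0364 to 0.0744, 0 of 15 above 0.1). With the replicate block 3 members were called between 15 and 120 min and 4 on the slope, Bid being added at -0.10. The cause of these changes was not tested.

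The number of genes called moved more. Between 15 and 120 min it was 2228, with 3818 from those 2 groups alone, 3700 from the labelled libraries (added after seeing the data), 252 with the labelled part scaled, 1455 by DESeq2 and 657 to 1037 without a library. Between no4sU and 120 min 1643 became 171 from the groups alone, 190 with the labelled part scaled, 1060 by DESeq2 and 452 to 3533 without a library. On the slope 4362 became 1654 without the 120 min libraries and 1557 with the labelled part scaled. At 90 min 161 became 284 with library sizes alone, 438 without a filter, 2 from the groups alone, 15 with scaling and 8 to 1442 without a library. At 60 min 2 became 15, 95, 0, 1 and 0 to 1213 in that order, 7 by DESeq2 and 4 with the replicate block. At 15 and 30 min 0 became 9 without a filter. Depth limits Bcl2, Bcl2l11 and Bbc3 most.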

Other observations

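Apoptosis genes outside the Bcl2 family set spanned the range of NTR as widely as its members. At 120 min the ubiquitin ligase gene Fbxw7 was at 1.00 in both libraries, Cflar at 0.843 and 0.842, Birc2 at 0.795 and 0.818, and Xiap at 0.528 and 0.576. Casp8 was at 0.258 and 0.301, Huwe1, whose protein targets Mcl1, at 0.213 and 0.220, Diablo at 0.246 and 0.188, and Htra2 at 0.212 and 0.240. Of genes close to the members, Bmf had an NTR of 1.00 in both libraries on a mean count of only 17.6, Bok was at 0.269 and 0.263, and Bcl2l13, whose exons overlap those of Bid, was at 0.418 and 0.409 against 0.569 and 0.559 for Bid. These values were chosen after they were seen and are given as a description.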
